A study of Mus musculus with 12 samples.

Results

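The insulin-like growth factor binding proteins (IGFBPs) are secreted proteins that bind insulin-like growth factors, and 6 of their genes, Igfbp2, Igfbp3, Igfbp4, Igfbp5, Igfbp6 and Igfbp7, were chosen here by gene symbol from the 18211 genes of the expression table. MC38, a mouse colon adenocarcinoma line, was grown under the skin of C57BL/6 mice, and RNA sequencing measured 12 tumors in 4 groups of 3. The CK group received vehicle, the PB-020 group received the IGF-1R inhibitor PB-020 by mouth at 50 mg/kg per day, the anti-PD-1 group received an antibody against the T cell checkpoint receptor PD-1, and the combination group, PB-020 with anti-PD-1, received both. The mice were female, 5 weeks old at purchase, and were divided into groups on day 7 after injection of the cells. Antibody doses, 200 μg each, followed on days 9, 12, 15 and 18. All groups carried the same tumor line and no genetic change was made. Line and host were both mouse, so tumor and host transcripts could not be separated by species. In such bulk samples, fewer cells of a type and less RNA per cell cannot be told apart.

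IGF1 and IGF2 act through the IGF-1 receptor, a receptor tyrosine kinase that signals through insulin receptor substrate adaptors to the PI3K/AKT pathway. Binding proteins hold the growth factors outside the cell, prolong their life and keep them from the receptor, and proteases that cut the binding proteins set the growth factors free. Several binding proteins also act on cells without the growth factors, and in tumors they come from the cancer cells, from fibroblasts and from vessels. IGFBP3 is the main carrier in blood, IGFBP4 is mainly inhibitory and is cut by the protease PAPP-A, IGFBP5 binds matrix, IGFBP6 prefers IGF2, IGFBP2 carries an integrin-binding motif, and IGFBP7 is a more distant relative with low affinity for the growth factors that is abundant in vessels.

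The 6 genes lie on 4 chromosomes in GRCm38.p6. Igfbp2 (gene 16008, chromosome 1, 72824480 to 72852474, plus strand) and Igfbp5 (gene 16011, chromosome 1, 72858065 to 72874865, minus strand) face each other tail to tail across a gap of 5590 bases. Igfbp3 (gene 16009, chromosome 11, 7206086 to 7215498, minus strand) lies 3539 bases from Igfbp1, which is not a member of the set. Igfbp4 (gene 16010, chromosome 11, 99040005 to 99052655, plus strand) is on the same chromosome. Igfbp6 (gene 16012, chromosome 15, 102144186 to 102149512, plus strand) and Igfbp7 (gene 29817, chromosome 5, 77349240 to 77408045, minus strand) share their chromosomes with no other member. The main protein-coding transcripts of GENCODE have 4 exons for Igfbp2, Igfbp4, Igfbp5 and Igfbp6 and 5 exons for Igfbp3 and Igfbp7, and they encode between 238 amino acids (Igfbp6) and 305 amino acids (Igfbp2).

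The start-site sequences of the 3 genes whose level differed with the antibody are shown. Igfbp3 and Igfbp6 moved one way and Igfbp4 the other, and no link of the sequences to these changes was tested. Each is the 250 bases before the RefSeq start site on the strand of the gene, 5′ to 3′, with capitals for TATAAA, searched on both strands. Igfbp3, chromosome 11, 7213924 to 7214173, minus strand:
Igfbp3: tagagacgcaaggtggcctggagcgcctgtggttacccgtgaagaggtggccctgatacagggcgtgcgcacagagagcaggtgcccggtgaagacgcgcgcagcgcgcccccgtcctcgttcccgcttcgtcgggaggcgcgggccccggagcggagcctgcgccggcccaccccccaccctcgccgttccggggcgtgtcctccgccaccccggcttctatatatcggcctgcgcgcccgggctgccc
Igfbp4, chromosome 11, 99040994 to 99041243, plus strand:
Igfbp4: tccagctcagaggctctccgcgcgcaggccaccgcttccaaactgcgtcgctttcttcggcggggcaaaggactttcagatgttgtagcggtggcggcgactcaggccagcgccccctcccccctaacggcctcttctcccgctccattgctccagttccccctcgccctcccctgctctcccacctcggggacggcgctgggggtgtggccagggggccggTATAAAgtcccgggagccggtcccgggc
Igfbp6, chromosome 15, 102143936 to 102144185, plus strand:
Igfbp6: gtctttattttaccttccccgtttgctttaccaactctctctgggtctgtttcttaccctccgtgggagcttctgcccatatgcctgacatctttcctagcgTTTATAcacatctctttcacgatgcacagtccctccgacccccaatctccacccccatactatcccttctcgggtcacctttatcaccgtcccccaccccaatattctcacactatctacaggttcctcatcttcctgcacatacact

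TATAAA stood on the gene's own strand 28 bases before the start of Igfbp4, on the other strand in Igfbp6, and was not among these letters in Igfbp3. Only this exact string was searched, so other TATA-like strings, such as tatatat near the end of the Igfbp3 window, were not marked. Of 32851 RefSeq start sites, 12.4% had TATAAA on either strand in a window of this length. GGGCGG, searched likewise on both strands, was in none of the 3 windows and in 32.7% of all windows. The windows differed in CG dinucleotides, with 32 in Igfbp3, 22 in Igfbp4 and 7 in Igfbp6. Fewer CG dinucleotides were found in 95.4%, 85.2% and 53.7% of all windows, respectively. The GENCODE start of Igfbp6 lies 176 bases downstream of the RefSeq start used here, and the window of Igfbp6 abuts its RefSeq gene, whereas those of Igfbp3 and Igfbp4 lie inside their RefSeq gene spans.

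The depth was even, between 16545394 and 17217035 expected counts per tumor, and 13563 genes passed the filter on low counts. Replicates of a group differed from each other beyond sampling noise in all 12 pairs, with chi-square over degrees of freedom from 5.21 to 32.9. The study calls the line a colon carcinoma, yet the 5 listed epithelial markers were low. Epcam, Krt8, Krt18, Krt19 and Cdh1 together stood at 2.19 to 4.29 FPKM in the 12 tumors. Krt14, a keratin listed with the keratinocyte markers, was not low, at 76.0 to 206 FPKM. One anti-PD-1 tumor, tumor 1, stood apart, with 7 skeletal muscle markers summing to 512 FPKM against 9.25 to 55.1 in the other 11. Its macrophage and T cell markers were also the highest of all tumors. CK tumor 3 stood apart in another way, with 5 adipocyte markers summing to 278 FPKM against 29.2 to 64.2 in the other 11. Its fibroblast and endothelial markers were the highest of all tumors, and so was its Igfbp3 value. The part of these markers in that value was not tested.

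Igfbp4, Igfbp6, Igfbp3 and Igfbp7 were abundant, Igfbp5 was far lower and Igfbp2 was close to the limit of detection. The median over 12 tumors, in FPKM, a unit that corrects fragment counts for gene length and library size, was 299.8 for Igfbp4, 115 for Igfbp6, 79.4 for Igfbp3, 66.9 for Igfbp7, 5.42 for Igfbp5 and 0.275 for Igfbp2. Of the genes that passed the filter, 98.3% had a lower mean FPKM than Igfbp4, 91.9% a lower one than Igfbp7 and 34.7% a lower one than Igfbp5. Igfbp4 was above Igfbp6 in 12 of 12 tumors and Igfbp6 was above Igfbp3 in 11 of 12, with CK tumor 3 as the exception. Igfbp3 and Igfbp7 did not keep an order, since Igfbp3 was higher in 7 of 12 tumors and Igfbp7 in anti-PD-1 tumors 1 and 3 and in all 3 combination tumors. Igfbp1, a mainly hepatic binding protein outside the set, had at most 1 count in any tumor.

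**Figure D1:**
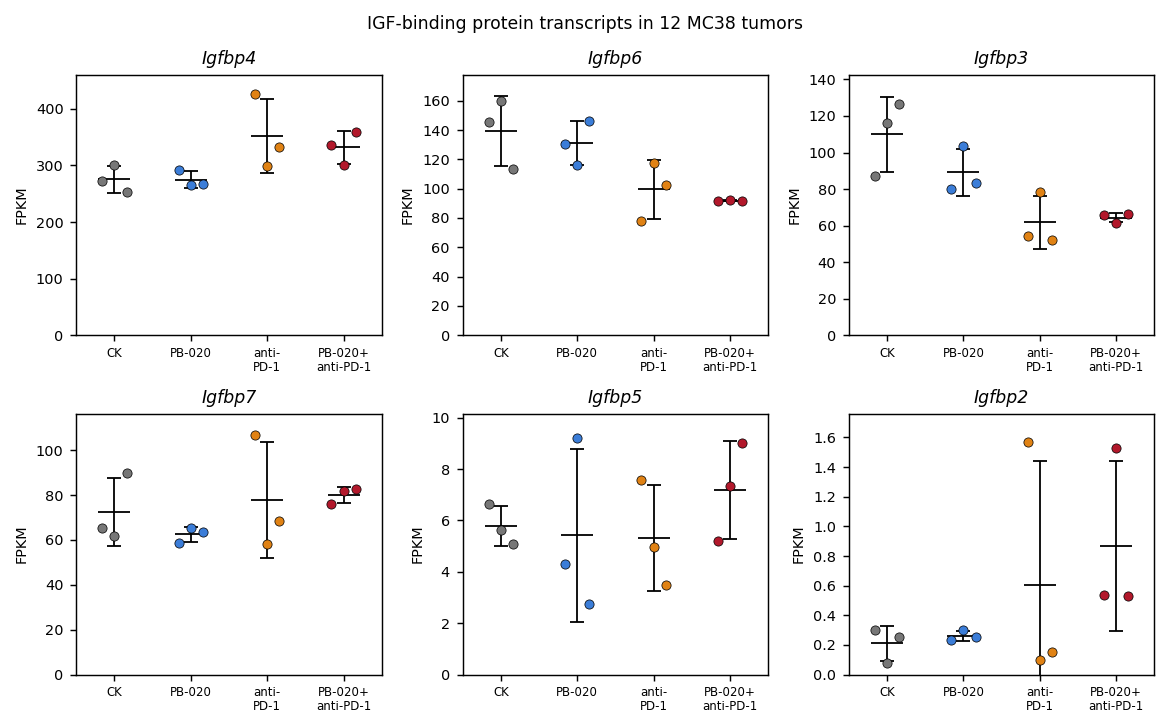
FPKM of the 6 genes in each of the 12 tumors, with points for tumors 1, 2 and 3 of a group from left to right, a long bar for the group mean and a whisker of 1 SD (n = 3), cut at 0 for Igfbp2. The 6 tumors given the antibody lie between 52.1 and 78.6 FPKM for Igfbp3, all below the 6 tumors without it.

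Whether PB-020, which is directed at the IGF-1 receptor, came with a different level of the proteins that hold its ligands was asked first. With PB-020 alone, no IGFBP gene passed the test. In edgeR's quasi-likelihood test with Benjamini-Hochberg adjustment, 0 of the 5 IGFBP genes that passed the filter were called, 0 of 5 had an unadjusted p under 0.05, and 0 were called by DESeq2, beside 0 of all 13563 genes (percent called 0) by edgeR, 741 (5.46%) at an unadjusted p under 0.05 and 6 by DESeq2. Igfbp3 averaged 109.9 ± 20.5 FPKM (SD, n = 3) in CK and 89.2 ± 12.8 in PB-020, a log2 change of -0.28 (95% interval -0.66 to 0.10). Igfbp4 averaged 275.5 ± 23.5 in CK and 274.9 ± 14.5 in PB-020, a log2 change of 0.02 (95% interval -0.23 to 0.26). The interval for Igfbp5 was wider, from -1.08 to 0.94.

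Averaged over the PB-020 arms, the antibody effect covered 6 tumors against 6 and called the most IGFBP genes of the 8 comparisons. Igfbp3 and Igfbp6 were lower and Igfbp4 was higher in tumors given anti-PD-1, while Igfbp7 and Igfbp5 did not pass the test. Of the 5 IGFBP genes tested, 3 were called, 2 lower and 1 higher, beside 24.2% of all genes tested in either direction, 12.3% lower and 11.8% higher. The median log2 change was 0.15 over the 5 genes and 4.5e-05 over all genes tested. These comparisons share control tumors with those below, so they are not separate evidence.

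Igfbp3 fell. It stood at 87.0, 116 and 126 FPKM in CK tumors 1, 2 and 3 and at 80.2, 104 and 83.5 FPKM in PB-020. Tumors given anti-PD-1 had 54.5, 78.6 and 52.1 FPKM, and those given both agents 65.7, 61.4 and 66.2 FPKM. All 6 tumors with the antibody were below all 6 without it, an arrangement found in that direction in 4.6% of the genes tested. The log2 change was -0.64 ± 0.12 (SE), a fold of 0.641, with an adjusted p of 0.0052 in edgeR's quasi-likelihood test. Against CK alone the log2 change was -0.81 ± 0.17 (SE) for anti-PD-1 (adjusted p = 0.022) and -0.75 ± 0.17 (SE) for the combination (adjusted p = 0.016) in the same test.

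Igfbp6 fell with the antibody as well, by a smaller amount. CK tumors 1, 2 and 3 had 145, 160.1 and 113 FPKM, and PB-020 tumors had 130.8, 116 and 146 FPKM. Anti-PD-1 tumors had 78.1, 118 and 103 FPKM, and the 3 combination tumors lay close together at 91.8, 92.0 and 91.7 FPKM. CK tumor 3 lay below anti-PD-1 tumor 2, so the tumors with and without the antibody overlapped. The log2 change over 6 against 6 tumors was -0.49 ± 0.11 (SE), with an adjusted p of 0.011 in edgeR's quasi-likelihood test. Against CK it was -0.59 ± 0.16 (SE) for the combination (adjusted p = 0.028) and -0.47 ± 0.16 (SE) for anti-PD-1 alone, which did not pass (adjusted p = 0.089) in the same test.

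Igfbp4, the most abundant of the 6, rose. It was at 272, 300.4 and 254 FPKM in CK tumors 1, 2 and 3 and at 292, 265 and 268 FPKM in PB-020. It reached 426, 299 and 332 FPKM under anti-PD-1 and 336, 301 and 359 FPKM under both agents. The 3 combination tumors were above all CK and all PB-020 tumors, the lowest of them by a narrow margin over CK tumor 2, whereas anti-PD-1 tumor 2 was just below CK tumor 2. Of all genes tested, 17.9% had the 3 combination tumors above all CK tumors and 14.5% had them above all PB-020 tumors. The log2 change over 6 against 6 tumors was 0.32 ± 0.081 (SE), a fold of 1.25, with an adjusted p of 0.013 in edgeR's quasi-likelihood test. Without anti-PD-1 tumor 1, which held the highest Igfbp4 value and the high muscle markers, it was 0.25 and still called. Against CK alone, 0.37 for anti-PD-1 (adjusted p = 0.059) and 0.29 for the combination (adjusted p = 0.096) did not pass. When only CK and the combination were fitted, the latter was called, with an adjusted p of 0.039 in edgeR's quasi-likelihood test, beside 22.5% of all genes.

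Igfbp7 had 65.3, 61.9 and 89.7 FPKM in CK tumors 1, 2 and 3 and 58.8, 65.3 and 63.5 FPKM under PB-020. It had 106.9, 58.1 and 68.4 FPKM under anti-PD-1 and 76.1, 81.6 and 82.7 FPKM under both agents. The combination tumors were all above the PB-020 tumors, but the highest value of all was anti-PD-1 tumor 1 and the groups otherwise overlapped. The antibody effect was 0.24 on the log2 scale (95% interval -0.08 to 0.56), with an adjusted p of 0.24 in edgeR's quasi-likelihood test. Igfbp5 ranged from 2.76 to 9.22 FPKM, both in PB-020 tumors, and its groups overlapped throughout. Its antibody effect was 0.15 on the log2 scale (95% interval -0.57 to 0.86).

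**Figure D2:**
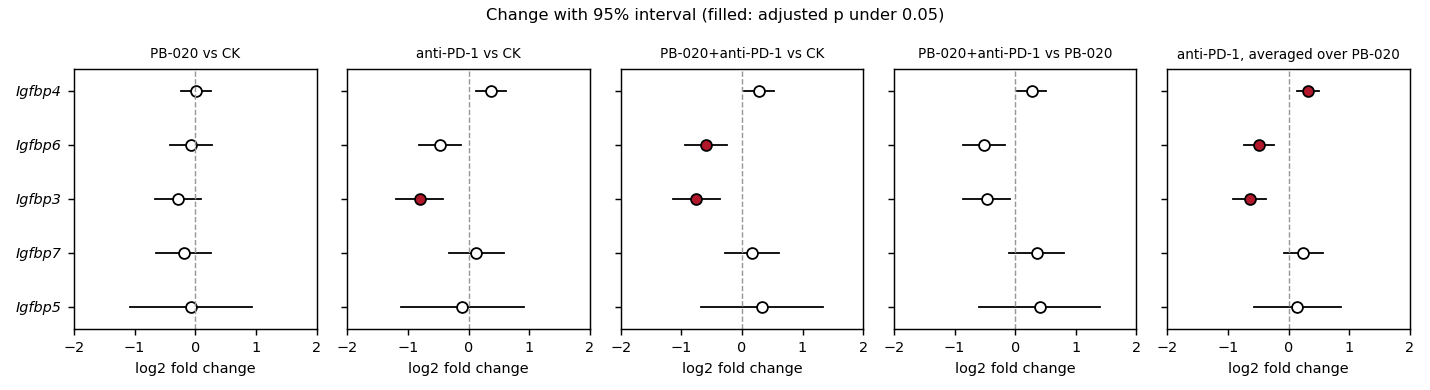
Log2 fold change (horizontal axis) of the 5 IGFBP genes that passed the filter in 5 comparisons, with bars for 95% intervals from edgeR and filled points for an adjusted p under 0.05. Igfbp3 and Igfbp6 lie left of 0 and Igfbp4 right of 0 wherever anti-PD-1 was given, while intervals for PB-020 against CK cross 0 for all 5 genes.

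Igfbp2 did not pass the filter and was not tested. It had 4, 1 and 5 expected counts in the CK tumors and 4, 5 and 5 under PB-020. It had 26, 2 and 3 counts under anti-PD-1 and 7, 27 and 8 under both agents. The 3 combination tumors were above all 6 tumors without the antibody, and anti-PD-1 tumors 2 and 3 were not. Combination counts of 7 and 8 lay close to the highest count without the antibody, 5. Of the genes tested, 17.9% had the combination tumors above all CK tumors in FPKM, and 14.5% had them above all PB-020 tumors.

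The 2 single comparisons with CK that included the antibody gave fewer calls than the average over both. For anti-PD-1 against CK, 1 of the 5 IGFBP genes was called (Igfbp3, lower), beside 8.26% of all genes tested. For the combination against CK, 2 of 5 were called (Igfbp3 and Igfbp6, lower), beside 17.9% of all genes. When the fit held only the 2 groups compared, Igfbp3 was no longer called for anti-PD-1 and 3 genes of the whole table were. The call of Igfbp3 for anti-PD-1 was also lost without CK tumor 2 or 3 or anti-PD-1 tumor 1 or 3, with adjusted p up to 0.089. For the combination, the call of Igfbp3 was lost without CK tumor 2 or 3 or combination tumor 1 or 2 (adjusted p up to 0.065), and that of Igfbp6 without CK tumor 1 or 2 or combination tumor 1, 2 or 3 (adjusted p up to 0.11). The 3 calls of the average over both PB-020 arms were kept when any 1 of the 12 tumors was left out, with adjusted p up to 0.034.

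Adding PB-020 to the antibody did not move any of the 5 genes past the test. In the combination against anti-PD-1, 0 of 5 were called by edgeR's quasi-likelihood test and 0 of 5 had an unadjusted p under 0.05, beside 0 of all genes (percent called 0), 984 (7.26%) at an unadjusted p under 0.05 and 1 by DESeq2. The 95% interval of the log2 difference was -0.32 to 0.44 for Igfbp3, -0.47 to 0.23 for Igfbp6 and -0.33 to 0.16 for Igfbp4. The interaction, which asks whether the log2 changes of the 2 agents add up, called 0 of 5 genes, none at an unadjusted p under 0.05, beside 0 of all genes (percent called 0), 310 (2.29%) at an unadjusted p under 0.05 and 0 by DESeq2. For Igfbp3 it was 0.34 (95% interval -0.20 to 0.88). The PB-020 effect averaged over both antibody arms likewise called 0 of 5 genes, none at an unadjusted p under 0.05, beside 0 of all genes (percent called 0), 1475 (10.9%) at an unadjusted p under 0.05 and 66 by DESeq2.

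In the combination against PB-020, 0 of the 5 were called by edgeR's quasi-likelihood test, beside 3.35% of all genes, while 3 had an unadjusted p under 0.05, as 22.4% of all genes had. Igfbp3 changed by -0.47 (adjusted p = 0.14), Igfbp6 by -0.52 (adjusted p = 0.09) and Igfbp4 by 0.27 (adjusted p = 0.19) on the log2 scale. In FPKM, the combination tumors did not overlap the PB-020 tumors for 4 of the 5 genes, with Igfbp3 and Igfbp6 lower and Igfbp4 and Igfbp7 higher. That arrangement was found in 15.7% of all genes tested on the lower side and 14.5% on the higher side. DESeq2 called Igfbp3 and Igfbp6, beside 1090 genes in all (6%), and the fit of these 2 groups alone called all 4, beside 1535 genes in all (11.6%).

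The summed level of the 6 transcripts overlapped between the groups, while its make-up differed with the antibody. In TPM, which gives each transcript's part of a fixed library total, the sum was 1089 ± 86.2 (SD, n = 3) in CK, 975 ± 11.4 under PB-020, 1090 ± 175 under anti-PD-1 and 996 ± 86.4 under both agents. Igfbp4 made up 43.1% to 51.5% of the sum in the 6 tumors without the antibody and 53.6% to 63.1% in the 6 with it. Igfbp3 made up 14.2% to 21.5% and 8.08% to 14.1%, respectively. The ratio of Igfbp4 to Igfbp3 FPKM was 2.57 ± 0.56 in CK, 3.13 ± 0.54 under PB-020, 6.00 ± 2.03 under anti-PD-1 and 5.15 ± 0.26 under both agents. These shares and ratios were formed with the gene changes known and are given with no test.

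**Figure D3:**
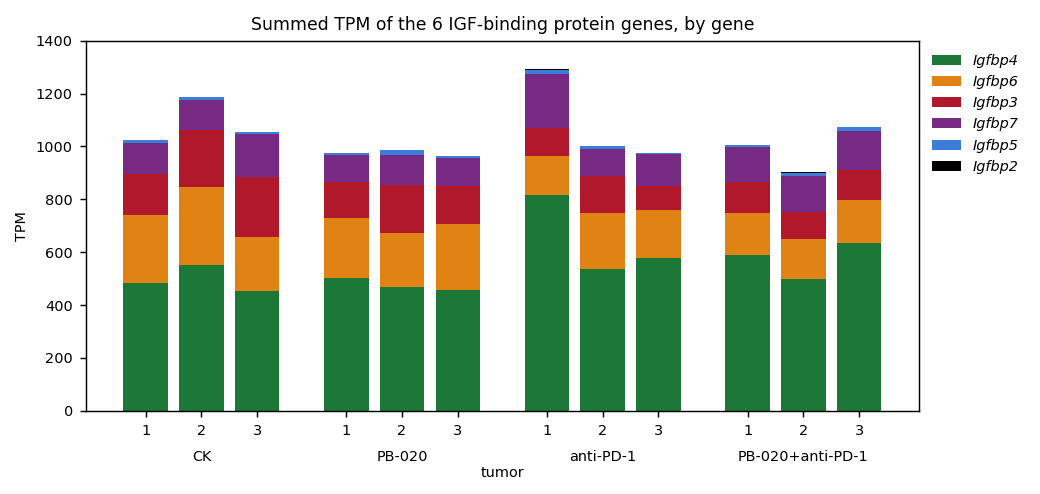
TPM of the 6 IGFBP genes stacked for each tumor, in 4 groups of 3. The bars reach between 904 and 1292 TPM, and the Igfbp4 part is the largest in every tumor.

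The growth factors themselves were low and variable, and neither they nor their receptor Igf1r passed the test. Igf1 stood at 1.01, 1.62 and 1.58 FPKM in CK and 1.87, 1.28 and 1.31 FPKM under PB-020. It stood at 5.86, 0.82 and 1.55 FPKM under anti-PD-1 and 1.13, 3.12 and 2.81 FPKM under both agents. The highest Igf1 value was in the tumor with the high muscle markers, as was the highest Igf2 value, 1.24 FPKM, against 0.04 to 0.33 FPKM in the other 11. Igf1r, the target of PB-020, averaged 11.2 ± 0.959 FPKM (SD, n = 3) in CK, 10.7 ± 0.238 under PB-020, 10.9 ± 0.0737 under anti-PD-1 and 10.1 ± 0.575 under both agents. None of Igf1, Igf2, Igf1r and Insr, the insulin receptor, was called in any of the 8 comparisons.

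Among 17 genes listed for ligands, receptors and adaptors of the IGF axis, 15 were tested. The antibody effect called 4 of them higher and 2 lower, beside 11.8% and 12.3% of all genes tested. Irs1, the adaptor that docks on the insulin and IGF-1 receptors, fell, with 3.03 ± 0.0945 FPKM (SD, n = 3) in CK, 2.57 ± 0.0929 under PB-020, 2.28 ± 0.0866 under anti-PD-1 and 2.08 ± 0.0721 under both agents. Its antibody effect was -0.35 on the log2 scale, with an adjusted p of 0.00098 in edgeR's quasi-likelihood test. Igf2r, the mannose-6-phosphate receptor that clears IGF2, fell as well. It averaged 22.7 ± 1.53 FPKM in CK, 19.1 ± 1.96 under PB-020, 17.3 ± 2.34 under anti-PD-1 and 14.6 ± 1.41 under both agents. Tumors with and without the antibody overlapped, at 13.6 to 19.0 and 16.9 to 23.9 FPKM. The antibody effect on Igf2r was -0.39 (adjusted p = 0.003 in the same test). Grb14, an inhibitory adaptor of the insulin receptor, rose by 0.83 on the log2 scale (adjusted p = 0.0047), and Insrr, an insulin receptor relative, by 1.01 (adjusted p = 0.0063). Igf2bp1, which binds Igf2 mRNA and is no IGFBP, and Grb2 rose by 0.28 (adjusted p = 0.0064) and 0.18 (adjusted p = 0.048). The list's median log2 change was 0.07, beside 4.5e-05 over all genes tested. Against CK, the antibody alone called 2 of the 15 higher and 2 lower, beside 4.18% and 4.08% of all genes tested. The combination called 3 higher and 2 lower, beside 8.35% and 9.6%, and PB-020 alone called 0, as of all genes. For PB-020 alone, edgeR's quasi-likelihood test gave Irs1 a log2 change of -0.22 and Igf2r one of -0.22, with unadjusted p of 0.010 and 0.049 and an adjusted p of 0.87 for both. An unadjusted p under 0.05 was found in 5.46% of all genes tested.

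Proteins that cut IGFBPs, and those that restrain the cutting, were also measured. Of 16 listed genes, 12 were tested, and the antibody effect called 2 higher, Pappa and C1s1, and 3 lower. Of all genes tested, it called 11.8% higher and 12.3% lower. Pappa, the protease of IGFBP4, was scarce, with 0.02 to 0.08 FPKM (4 to 11 counts) in the 6 tumors without the antibody and 0.05 to 0.19 FPKM (10 to 33 counts) in the 6 with it. Only 1 of the 6 tumors without the antibody reached 10 counts, so Pappa passed the filter through the tumors in which it was high. Its call is not counted as a result, which leaves C1s1 as the only higher call of the list. Stc1, an inhibitor of PAPP-A, stood at 2.31 ± 0.32 FPKM (SD, n = 3) in CK, 2.06 ± 0.135 under PB-020, 1.48 ± 0.347 under anti-PD-1 and 1.73 ± 0.0557 under both agents, and fell by 0.43 (adjusted p = 0.019) with the antibody.

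C1s1, a complement protease that cuts IGFBP5, rose by 0.92 on the log2 scale (adjusted p = 0.005), with 18.5 to 30.5 FPKM in tumors without the antibody and 34.5 to 63.2 FPKM in tumors with it. Plat, the tissue plasminogen activator, fell by 0.46 (adjusted p = 0.00062), with 37.2 ± 3.04 FPKM in CK, 30.6 ± 3.76 under PB-020, 25.5 ± 0.214 under anti-PD-1 and 23.2 ± 1.21 under both agents. Adam9, a membrane metalloprotease, fell by 0.12 on the log2 scale (adjusted p = 0.04). The list's median log2 change was 0.08. PB-020 alone called 0 of the 12 genes and 0 of all genes tested in edgeR's quasi-likelihood test. Plat had a log2 change of -0.26 with PB-020 (unadjusted p = 0.0092, adjusted p = 0.87 in that test). Adam9 had one of -0.16, while Plau of the same list went the other way, at 0.33. Both had an unadjusted p of 0.012 and an adjusted p of 0.87 in that test. Of all genes tested, 5.46% had an unadjusted p under 0.05.

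**Figure D4:**
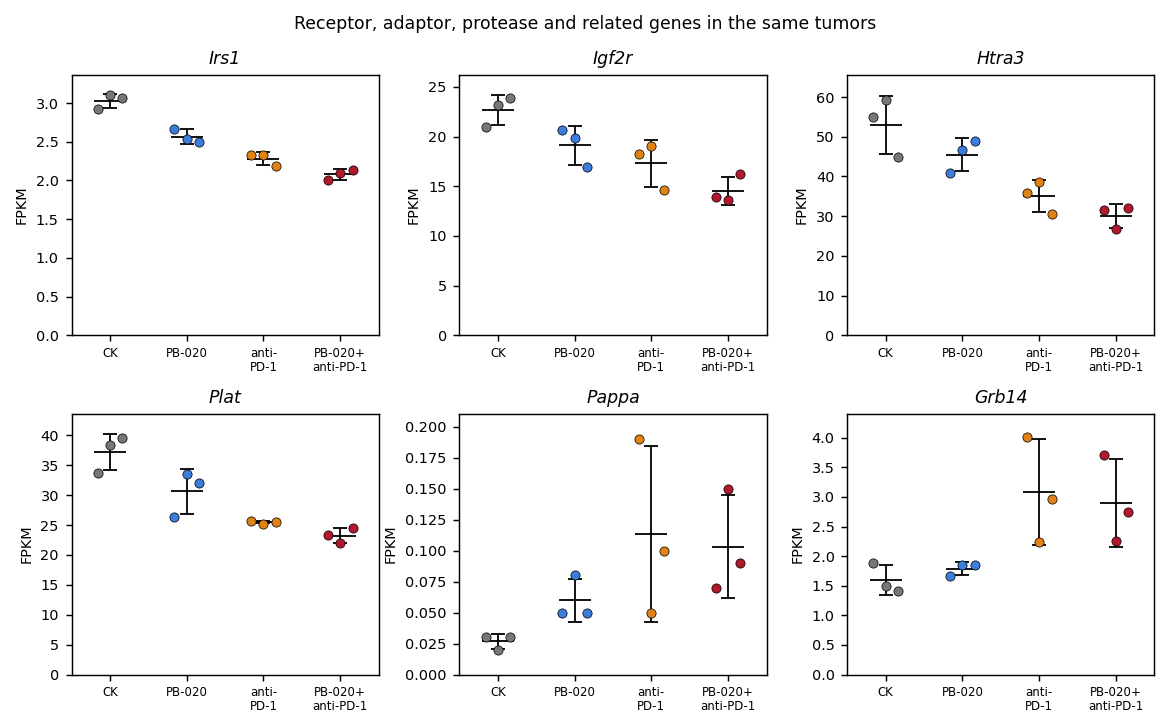
FPKM of Irs1, Igf2r, Htra3, Plat, Pappa and Grb14 in the 12 tumors, with points for single tumors, long bars for group means and whiskers of 1 SD (n = 3). Irs1, Htra3 and Plat are lower in all 6 tumors with the antibody than in any tumor without it, and Grb14 is higher, arrangements found in 4.6% and 3.54% of the genes tested.

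Genes whose proteins share the IGF-binding domain did not move as 1 group. Of 13 listed relatives, 10 were tested, and the antibody effect called 1 higher and 4 lower, beside 11.8% and 12.3% of all genes tested. The list's median log2 change was 0.03. Nov, a matricellular protein, had 0.58 to 3.38 FPKM without the antibody and 4.07 to 30.5 FPKM with it, a log2 change of 2.95 with an adjusted p of 0.0085 in edgeR's quasi-likelihood test. Htra3, a secreted serine protease, fell, with 53.0 ± 7.27 FPKM (SD, n = 3) in CK, 45.5 ± 4.16 under PB-020, 35.0 ± 4.07 under anti-PD-1 and 30.0 ± 2.91 under both agents, an antibody effect of -0.58 (adjusted p = 0.00082). Crim1, Kazald1 and Esm1, the endothelial proteoglycan endocan, fell by 0.35, 0.46 and 0.90 on the log2 scale (adjusted p = 0.0057, 0.026 and 0.035). Cyr61, another matricellular protein, was called only in anti-PD-1 against CK among the 8 comparisons, at 0.43 (adjusted p = 0.037). With PB-020 alone its log2 change was 0.29 (unadjusted p = 0.025, adjusted p = 0.87 in edgeR's quasi-likelihood test).

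Marker lists of other cell types moved between the same groups. The 8 fibroblast markers summed to 2137 to 2805 FPKM in CK, 1975 to 2048 under PB-020, 925 to 1685 under anti-PD-1 and 977 to 1357 under both agents. In the antibody effect 4 of the 8 (Dcn, Col3a1, Col6a1 and Pdgfra) were called lower and 0 higher, beside 12.3% and 11.8% of all genes tested. Of the 8 log2 changes, 4 were above 0 and 4 below, with a median of -0.10. The 8 T cell markers summed to 11.8 to 16.8 FPKM in CK, 17.1 to 20.8 under PB-020, 25.5 to 62.5 under anti-PD-1 and 31.7 to 50.3 under both agents, with 7 of 8 called higher. No fibroblast or T cell marker was at 0 in any tumor.

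The 9 pericyte and smooth muscle markers had 2 called higher and 3 lower, with sums of 85.0 to 143 FPKM. The 9 endothelial markers had 0 called by edgeR's quasi-likelihood test, with sums of 50.4 to 94.1 FPKM. The 6 macrophage markers had 1 called higher, with sums of 161 to 318 FPKM. The 5 erythroid markers were all called lower. They summed to 679 to 1556 FPKM in CK, 449 to 1046 under PB-020 and 101 to 380 in the 6 antibody tumors. Of 4 keratinocyte markers, Krt14 was called higher, and 0 of the 7 skeletal muscle, 3 tested adipocyte and 1 tested epithelial markers were. All these calls are those of the antibody effect, which called 11.8% of all genes tested higher and 12.3% lower. The part of these cell types in the IGFBP differences was not tested.

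The genes whose 12 values ran closest to each IGFBP gene were found by the root mean square difference of centred log2 CPM, which is a count scaled to library size. For Igfbp3 these were Trp53i11 (0.0919), Dbndd1 (0.141) and Fmo5 (0.143), against a median of 0.417 over all genes tested. For Igfbp6 they were Pam (0.0933), Slc30a4 (0.107) and Dync2h1 (0.112), and for Igfbp4 they were Hr (0.0536), Larp1 (0.0621) and Gemin5 (0.0639). For Igfbp7 they were Ptger4 (0.0660), Fermt3 (0.0753) and Spi1 (0.0778), and for Igfbp5 Mageh1 (0.295), Pcdhgb2 (0.327) and Msx2 (0.329). No IGFBP gene was among the 3 closest to another. Among all genes tested, Igfbp6 ranked 833rd in closeness to Igfbp3, Igfbp7 ranked 756th to Igfbp5 and Igfbp7 ranked 3930th to Igfbp4. The 12 points share the 4 treatments, so a small difference describes these tumors only.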

How the data were processed

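RNA of 12 MC38 tumors was sequenced by the authors as pairs of 150 bases. The methods name Bowtie2, RSEM and mm10 or hg19, and the submitters' processing notes list HISAT, Bowtie2 and GRCm38.p6; versions and strandedness are not given in the sources used here. The deposited expected counts are RSEM estimates, not normalized (90.97% whole). The deposited FPKM values were scaled by the authors to gene length and library total, and the deposited TPM values to a fixed sum. The authors' group averages were not used. Where reads of overlapping genes were shared out by RSEM, levels carry that uncertainty.

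Groups and tumor numbers came from the sample labels. Expected counts were rounded, filtered with filterByExpr (edgeR 4.0.16, R 4.3.3, minimum count 10), scaled by TMM (factors 0.989 to 1.022) and fitted with edgeR's robust quasi-likelihood model of 4 group means over 12 tumors. Tests were two-sided, with Benjamini-Hochberg adjustment over 13563 genes and calls at an adjusted p under 0.05. The study's methods used a two-tailed per-gene test on FPKM, which was not run here. Its thresholds, a fold over 1.5 and p under 0.05, served as a second rule with edgeR's fold and unadjusted p. The antibody effect is the mean of both antibody groups minus that of the others on the log2 scale. Nothing in the labels says more of the replicates than that they are separate tumors of a group. Depth ranged from 16545394 to 17217035 expected counts, and errors cover tumor spread and counting only. Log2 CPM used a prior count of 2. The computation was tested on simulated counts.

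Named were the 6 IGFBP genes, Igf1, Igf2, Igf1r, Igf2r and Insr, genes of the 3 lists called in a comparison with CK or an averaged effect (up to 10 per list), and the 3 genes closest to each IGFBP gene. Plau was named as well, for its unadjusted p with PB-020. Members and lists were chosen with earlier results of these data known, and lists were written by hand. Promoter windows and coordinates are from RefSeq for GRCm38.p6, in which all 6 genes matched, and exons from GENCODE. Alternatives were DESeq2 1.42.0, limma 3.58.1 on log2(FPKM + 1) and log2(FPKM + 0.1), other filters and scalings, a replicate block, only the groups compared, the fold rule and each tumor left out. Tumors with the same number did not deviate together, so no pairing was used.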

Additional observations from a re-analysis of the deposited data

Results flagged for a closer look

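Igfbp2 was outside the tested genes, yet 4 tumors with the antibody had more counts than the highest CK tumor, which had 5. Anti-PD-1 tumor 1 had 26 expected counts, and combination tumors 1, 2 and 3 had 7, 27 and 8. Anti-PD-1 tumors 2 and 3, with 2 and 3 counts, did not. With no filter on low counts, the log2 antibody effect was 1.59 (95% interval 0.27 to 2.91), with an adjusted p of 0.097 in edgeR's quasi-likelihood test, so it did not pass. Anti-PD-1 tumor 1 also had the highest skeletal muscle markers, and their part in its Igfbp2 value was not tested.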

How the results depend on the processing

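The 3 calls of the antibody effect (Igfbp3 and Igfbp6 lower, Igfbp4 higher) were kept under DESeq2, limma, other filters and scalings and with each tumor left out, which gave 3 to 4 calls. The extra one, without anti-PD-1 tumor 2, was Igfbp2, which then passed the filter only through tumors in which it was high and is not counted as a result. The antibody effect called 15.8% to 25.8% of all genes in these other settings and 15.2% to 26.8% with a tumor left out. The rule of a fold over 1.5 with an unadjusted p under 0.05 kept 1 of the 3 calls, Igfbp3. That rule was met by 2.54% of all genes on the lower side and 5.18% on the higher side. For anti-PD-1 against CK, with 1 call, DESeq2 gave 3 (9.03% of all genes), the 2 groups alone 0 (0.0226%) and leaving out tumors 0 to 3 (0.996% to 13.8%). For the combination against CK, with 2 calls, the 2 groups alone gave 3 (22.5%), Igfbp4 being the addition, and leaving out tumors 0 to 3 (6.28% to 24.4%). For the combination against PB-020, with 0 calls, DESeq2 gave 2 (6% of all genes), the 2 groups alone 4 (11.6%) and leaving out tumors 0 to 1 (0% to 9.28%). Replicate numbers do not pair the tumors: deviations of same-numbered tumors correlated from -0.21 to 0.29, 2 of 18 pairs were over 0.1, and 2 of 12 tumors correlated best with their own number. A replicate block left 1 call for anti-PD-1 against CK (6.41% of all genes). It left 2 for the combination against CK (14.8%) and 3 for the antibody effect (20%), and changed no other call of an IGFBP gene. Of the relatives list, 3 to 6 genes were called across all comparisons with each tumor left out in turn. With all tumors, those called in any comparison were Crim1, Cyr61, Esm1, Htra3, Kazald1 and Nov, the upper end of that range.

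Changes of sign were seen in values that were not called. For Igfbp4 in PB-020 against CK, 0.02 became -0.0058 with scaling by library size alone and -0.0010 with limma on log2(FPKM + 0.1) and on log2(FPKM + 1). With tumors left out, PB-020 against CK ranged from -0.051 to 0.084 for Igfbp4, -0.70 to 0.24 for Igfbp5 and -0.21 to 0.036 for Igfbp6. Anti-PD-1 against CK ranged from -0.43 to 0.11 for Igfbp5 and -0.16 to 0.30 for Igfbp7. The combination against anti-PD-1 ranged from -0.036 to 0.28 for Igfbp3, -0.18 to 0.063 for Igfbp4, -0.27 to 0.028 for Igfbp6 and -0.12 to 0.33 for Igfbp7. The interaction ranged from -0.19 to 0.045 for Igfbp4 and -0.20 to 0.11 for Igfbp6, and the antibody effect on Igfbp5 from -0.015 to 0.46. The averaged PB-020 effect ranged from -0.18 to 0.00042 for Igfbp3, -0.083 to 0.040 for Igfbp4, -0.13 to 0.34 for Igfbp5 and -0.16 to 0.070 for Igfbp7. The cause of these shifts was not tested. With 3 tumors a group, the widest interval among the 5 genes tested was that of Igfbp5, and at 1 to 27 counts the depth limits what can be said of Igfbp2.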
